A study of Homo sapiens with 6 samples.

Results

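NF-kB is a family of dimeric transcription factors. The genes described here encode its 5 subunits and 5 of the proteins that regulate its activity or its upstream signal. The set was given as a list of 10 genes, NFKB1, NFKB2, RELA, REL, RELB, NFKBIA, NFKBIE, TNFAIP3, TNIP1 and BIRC3, out of 18417 genes with a named probe set on the array. Of these, 9 had a probe set paired with that symbol alone, each with a single such probe set. BIRC3 had none, so its expression was not analysed here, and it enters only the promoter search. The cells were HCT116, an established human colorectal carcinoma line, harvested 48 h after transient transfection with double-stranded siRNA. One group of 3 arrays is labelled siChe-1, for an siRNA against Che-1 (the product of AATF), and the other group of 3 arrays is labelled control, for an siRNA against GFP. Both groups had the same cell line, medium and serum, and no other allele or agent is named. Transient siRNA depletes a transcript in part and in a mixed culture, and the labels leave unsaid whether replicates were separate cultures. The p-values below therefore reflect array-to-array spread, which may be technical. Values are log2 intensities made by the authors with RMA, which corrects background, equalises the arrays and gives 1 summary value per probe set. The level of a probe set depends on its probes, so levels are not ranked between genes.

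The gene targeted by the siRNA went against the labels. AATF read 8.53, 8.81 and 8.87 on the arrays labelled siChe-1, against 7.55, 7.75 and 7.55 on the arrays labelled control (log2 difference 1.12 ± 0.13 SE, limma adjusted p = 0.00122). Groups are therefore called by their labels, and every direction below would turn round if the labels were exchanged. The tissue label was checked with marker genes. The epithelial markers EPCAM (9.93 to 10.6), KRT8 (12.0 to 12.6) and KRT18 (11.6 to 12.2) lay above the upper quartile of all probe sets on all 6 arrays, while the intestinal markers CDH17 (2.41 to 2.78) and VIL1 (3.57 to 3.76) lay below the array medians (4.95 to 5.05), as did PTPRC, the pan-leukocyte marker (2.28 to 2.57). Of the other leukocyte markers, TYROBP read 5.83 to 6.20, above the medians, and LST1 4.93 to 5.24, on either side of them. The remaining measured leukocyte markers lay below the medians. The fibroblast marker COL1A1 read 6.97 to 7.48, and the other fibroblast and endothelial markers lay below the medians. The table carries no detection calls, so no reading is shown to be above background. The size of a difference is called uncertain where the mean of a group lies below the medians of its own arrays. In these bulk samples of a cell line, fewer cells expressing a gene and less of its RNA per cell cannot be told apart.

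NF-kB subunits share a Rel homology region through which they pair and bind DNA. In resting cells the dimers are held in the cytoplasm by IkB proteins such as the products of NFKBIA and NFKBIE. Receptors for cytokines and microbial products activate the IkB kinase, IkB is degraded, and the released dimers switch on genes that include their own inhibitors, which ends the response. TNFAIP3 encodes A20, a ubiquitin-editing enzyme that acts on the signalling complexes upstream of the kinase, TNIP1 encodes an A20-binding partner, and BIRC3 encodes a ubiquitin ligase of the TNF receptor complex. A separate, slower branch of the pathway runs through the processing of the NFKB2 precursor and acts mainly through dimers of its product with RELB.

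Promoter sequence from RefSeq (GRCh38.p14) was read for the listed genes, because several of them are textbook targets of NF-kB itself. In addition, 7 of the 9 measured genes read lower on every array labelled siChe-1 than on any array labelled control. Of all 18417 genes on the array, 13.3% read so. The table holds 300 bases per annotated start, 250 before and 50 after it. It had 13 entries for 8 of the 10 genes, all but RELB and NFKBIE. The decameric NF-kB consensus, known as the kB site, was searched on both strands, and overlapping matches were merged. At least 1 match lay in 8 of the 13 entries and in 7 of the 8 genes, RELA being the exception. The 7 include BIRC3, which has no expression value here. Over the whole table, 11.3% of 35116 entries and 13.3% of 27305 genes held a match in a window of this length. All the matches in these genes lay before the start. A match describes letters in a window and is not evidence of binding, and its absence says only that these letters are not in this window. The sequences below are shown so that the matched letters can be compared between genes. They run 5′ to 3′ on the gene's own strand, and capitals mark the match on either strand. For NFKBIA (chr14:35404750-35404869, minus strand) and RELA (chr11:65663858-65663977, minus strand) the 120 bases before the outermost start are given.
NFKBIA: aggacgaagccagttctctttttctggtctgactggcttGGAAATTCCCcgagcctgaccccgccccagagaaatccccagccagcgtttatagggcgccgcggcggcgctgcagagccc
RELA: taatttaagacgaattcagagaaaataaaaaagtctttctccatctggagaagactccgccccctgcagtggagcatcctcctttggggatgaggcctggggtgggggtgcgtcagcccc

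For the other measured genes 30 bases around a match are given. These lie at chr6:137867188-137867217 for TNFAIP3, where 2 matches are separated by a pair of bases, and at chr10:102394462-102394491 and chr10:102394490-102394519 before the second annotated start of NFKB2. Those of NFKB1 (chr4:102501300-102501329) and REL (chr2:60881518-60881547) precede the outermost start, and that of TNIP1 (chr5:151081057-151081086, minus strand) precedes a start inside the gene. The annotated starts used for TNFAIP3 and for these NFKB2 matches also lie inside the gene as annotated.
TNFAIP3: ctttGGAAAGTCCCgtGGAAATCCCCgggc
NFKB2 upstream match: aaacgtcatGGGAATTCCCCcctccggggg
NFKB2 downstream match: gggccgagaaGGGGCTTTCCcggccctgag
NFKB1: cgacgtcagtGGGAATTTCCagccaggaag
REL: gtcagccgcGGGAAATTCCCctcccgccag
TNIP1: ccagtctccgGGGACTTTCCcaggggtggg

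The TNFAIP3 matches began 67 and 55 bases before the start, that of NFKBIA 81, that of NFKB1 49, that of REL 47 and that of TNIP1 42. The map of matches around the annotated starts shows these positions for all 13 entries. The third annotated start of NFKB2 and the start of BIRC3 have 2 matches each, which are not printed. No relation between matches and expression differences was tested.

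**Figure D1:**
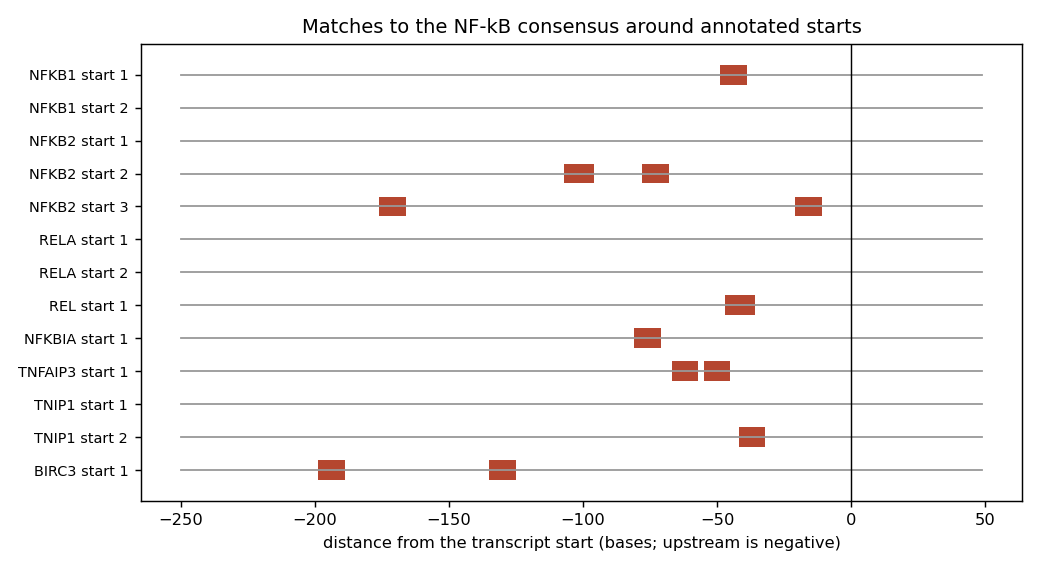
Matches to the NF-kB consensus (filled bars) along the 300 bases of each promoter entry, with the distance from the annotated transcript start on the x axis in bases and 1 line per annotated start of 8 genes. Matches lie in 8 of the 13 entries, all before the start, and neither RELA start has one.

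Transcripts of some of the subunits and feedback inhibitors were lower in the arrays labelled siChe-1. Of the 9 measured genes, 4 fell (TNFAIP3, RELB, NFKBIA and NFKB2) and none rose at a limma adjusted p under 0.05 over all 18417 genes, and 5 did not pass (NFKB1, TNIP1, NFKBIE, RELA and REL). Over all genes, 2.52% were lower and 1.19% higher by the same rule (3.72% in both directions, 465 lower and 220 higher). After centring each array on its median, 680 genes were lower and 170 higher. All 9 differences were below 0, as were 49.1% of those of all genes, and their median was -0.79 (log2), against 0.0051 over all genes. Every array labelled siChe-1 read below every array labelled control for 7 of the 9 genes, the exceptions being RELA and REL. Groups separated in that direction for 13.3% of all genes, and in either direction for 24.0%. Without siChe-1 replicate 1, 7 of the 9 genes were lower at the threshold, and without that array the counts over all genes were 826 lower and 739 higher. Leaving out any other single array gave 4 or 5 of the 9, and between 199 and 347 lower and between 63 and 115 higher genes overall.

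TNFAIP3, the gene of A20, showed the largest difference of the set. It read 5.10, 4.65 and 4.71 in the arrays labelled siChe-1, against 7.33, 6.97 and 7.33 in those labelled control. The groups were far apart, with a gap between them several times the spread inside either. The log2 difference was -2.39 ± 0.16 (SE, 95% confidence interval -2.74 to -2.03, limma adjusted p = 1.70e-05), which left 19.1% of the signal of the arrays labelled control. Its rank was 40 of 18417, counted from the lowest difference. The mean of the arrays labelled siChe-1 (4.82) lies below the array medians, so the size of the fall is uncertain.

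NFKBIA, the gene of IkBα, is the classical early target of NF-kB and gives the inhibitor that takes the dimers back out of the nucleus. It read 8.64, 8.18 and 8.29 in the arrays labelled siChe-1, against 9.88, 9.70 and 9.87 in those labelled control. The groups did not overlap, and the gap between them was wider than the range inside either. The log2 difference was -1.45 ± 0.14 (SE, 95% confidence interval -1.77 to -1.13, limma adjusted p = 0.000326), or 36.7% of the signal of the arrays labelled control, at rank 81 of 18417.

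NFKBIE and TNIP1 did not pass the test. NFKBIE, the gene of IkBε, an IkB protein that also responds to NF-kB, read 6.32, 5.99 and 5.92 in the arrays labelled siChe-1, against 6.80, 6.38 and 6.88 in those labelled control. The highest array labelled siChe-1 and the lowest array labelled control were close to touching. Its log2 difference was -0.61 ± 0.16 (SE, limma adjusted p = 0.0731). TNIP1 read 7.12, 6.61 and 6.66 in the arrays labelled siChe-1, against 7.27, 7.42 and 7.87 in those labelled control, a log2 difference of -0.73 ± 0.19 (SE, limma adjusted p = 0.0650). Its groups also did not overlap, and the narrow gap lay between siChe-1 replicate 1 and control replicate 1. Without siChe-1 replicate 1 both genes passed, NFKBIE at -0.73 (adjusted p = 0.0166) and TNIP1 at -0.89 (adjusted p = 0.0104).

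**Figure D2:**
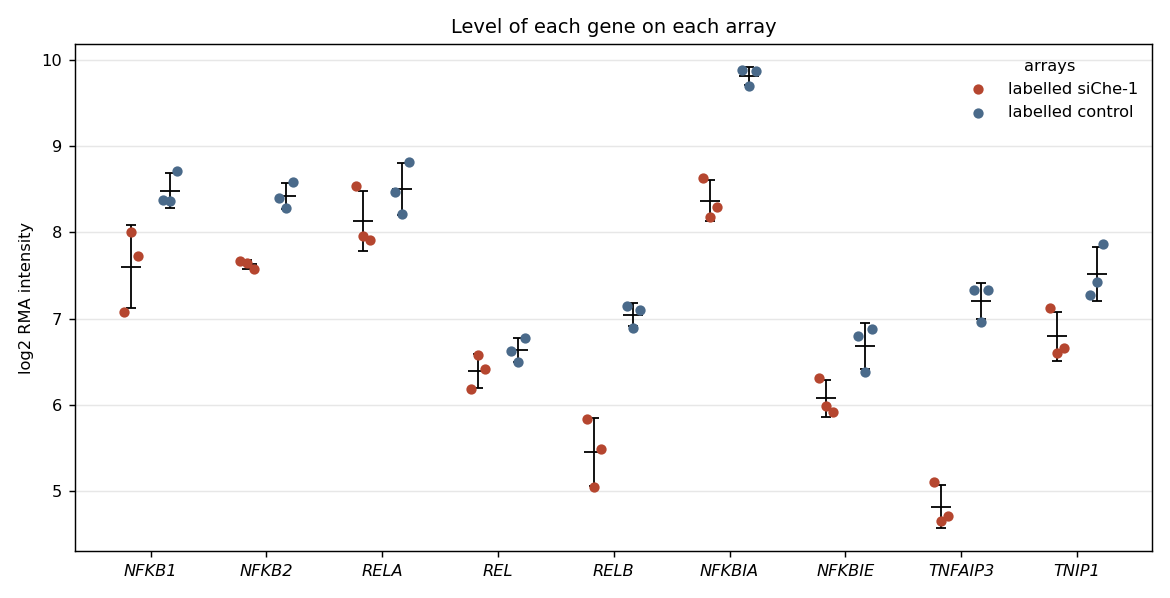
Log2 RMA intensity (y axis) of the 9 measured genes on each array, with points for single arrays, a dash for the group mean and bars for the SD over 3 arrays, arrays labelled siChe-1 on the left of each pair and arrays labelled control on the right. The groups are apart for all genes but RELA and REL, and heights are not comparable between genes.

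Among the subunits, RELB and NFKB2 fell at the threshold. NFKB1 differed by more than NFKB2 but did not pass, and the branches of the pathway were not compared. RELB, which works mainly in dimers with the NFKB2 product, read 5.83, 5.04 and 5.49 in the arrays labelled siChe-1, against 7.15, 6.89 and 7.10 in those labelled control. All 3 arrays labelled siChe-1 lay more than 1 log2 unit below the lowest array labelled control. The log2 difference was -1.59 ± 0.19 (SE, 95% confidence interval -2.01 to -1.18, limma adjusted p = 0.00109), or 33.2% of the signal of the arrays labelled control, at rank 69 of 18417.

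NFKB2, whose precursor acts as an inhibitor until it is trimmed into a DNA-binding subunit, read 7.67, 7.64 and 7.58 in the arrays labelled siChe-1, against 8.40, 8.28 and 8.58 in those labelled control. The 3 arrays labelled siChe-1 agreed closely (SD 0.048), the tightest spread of any group of the 9 genes. Its log2 difference was -0.79 ± 0.12 (SE, 95% confidence interval -1.06 to -0.52, limma adjusted p = 0.00617), or 57.8% of the signal of the arrays labelled control.

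NFKB1, which encodes the precursor of the DNA-binding partner of RELA, was near the threshold. It read 7.07, 8.01 and 7.72 in the arrays labelled siChe-1, against 8.38, 8.36 and 8.71 in those labelled control. The groups did not overlap, but the arrays labelled siChe-1 were spread widely (SD 0.48), with replicate 1 the lowest. Its log2 difference, -0.88 ± 0.22 (SE, 95% confidence interval -1.37 to -0.40, limma adjusted p = 0.0560), was below that of NFKB2, which passed. Without siChe-1 replicate 1 it was -0.62 (adjusted p = 0.0279), and without siChe-1 replicate 2 it was -1.09 (adjusted p = 0.0230).

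RELA and REL encode the subunits that carry strong activation domains, REL being best known in lymphocytes, and neither passed the test. RELA read 8.54, 7.96 and 7.91 in the arrays labelled siChe-1, against 8.47, 8.22 and 8.82 in those labelled control. These groups overlap, since siChe-1 replicate 1 lies above 2 of the arrays labelled control. The log2 difference was -0.37 ± 0.20 (SE, 95% confidence interval -0.81 to 0.075, limma adjusted p = 0.384), and it was -0.57 without siChe-1 replicate 1 (adjusted p = 0.0580). REL read 6.18, 6.58 and 6.42 in the arrays labelled siChe-1, against 6.63, 6.50 and 6.77 in those labelled control, again with overlap. Its log2 difference was -0.24 ± 0.14 (SE, 95% confidence interval -0.55 to 0.068, limma adjusted p = 0.416). The intervals of both genes include no change as well as a fall, and a p above the threshold does not show that they were unchanged.

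**Figure D3:**
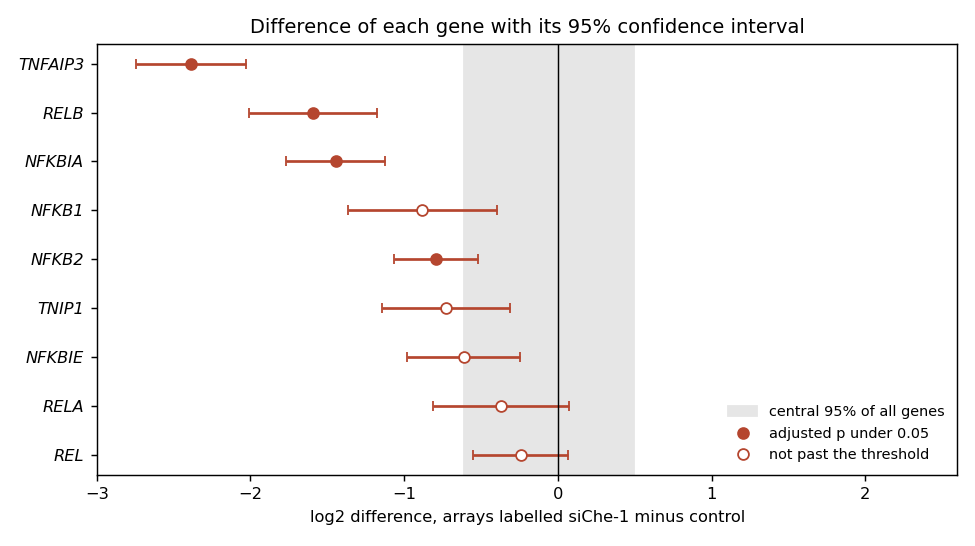
Log2 difference (x axis, labelled siChe-1 minus labelled control) of each gene with its 95% confidence interval from limma, ordered by size, with filled points for adjusted p under 0.05 and grey for the central 95% of all 18417 genes (-0.61 to 0.50). TNFAIP3, RELB and NFKBIA stand apart on the left, and the intervals of RELA and REL cross 0.

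In order of the differences, TNFAIP3 (-2.39) was followed by RELB (-1.59), NFKBIA (-1.45), NFKB1 (-0.88), NFKB2 (-0.79), TNIP1 (-0.73), NFKBIE (-0.61), RELA (-0.37) and REL (-0.24). The 95% interval of TNFAIP3 ended at -2.03 and that of RELB began at -2.01, so they did not meet by a small margin. The intervals of RELB and NFKBIA overlapped broadly, those of NFKBIA and NFKB1 overlapped in part, and so did those of each neighbouring pair from NFKB1 down to REL. Differences between genes were not tested. By exact two-sided permutation test of the 6 arrays, the 7 genes whose groups did not overlap each had p = 0.1, the smallest that 3 arrays against 3 can give, while RELA had p = 0.3 and REL p = 0.2.

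The arrays of a group differed in a way that ran through the set. Of the arrays labelled siChe-1, replicate 1 was the highest for 7 of the 9 genes and the lowest for NFKB1 and REL. It was the highest of its group for 43.7% of all genes and the lowest for 38.8%, and its correlations with the other arrays labelled siChe-1 were 0.984 and 0.986, against 0.996 between those. Of the arrays labelled control, replicate 2 was the lowest for 8 of the 9 genes, TNIP1 excepted, and replicate 3 was the highest for 7. Replicate 2 was the lowest of its group for 34.7% of all genes, and replicate 3 was the highest for 36.9%. Centred on each gene's own mean, the set averaged -0.37, -0.57 and -0.57 in the arrays labelled siChe-1, against 0.50, 0.32 and 0.68 in those labelled control. TNFAIP3, RELB, NFKBIA and NFKB2 stayed past the threshold whichever single array was left out, with adjusted p up to 0.000631, 0.0153, 0.00652 and 0.0421 in that order. For the 7 genes whose groups did not overlap, leaving out an array could not change the sign of the difference. RELA and REL, whose groups overlap, also stayed below 0, as the plot of differences with each array left out shows.

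**Figure D4:**
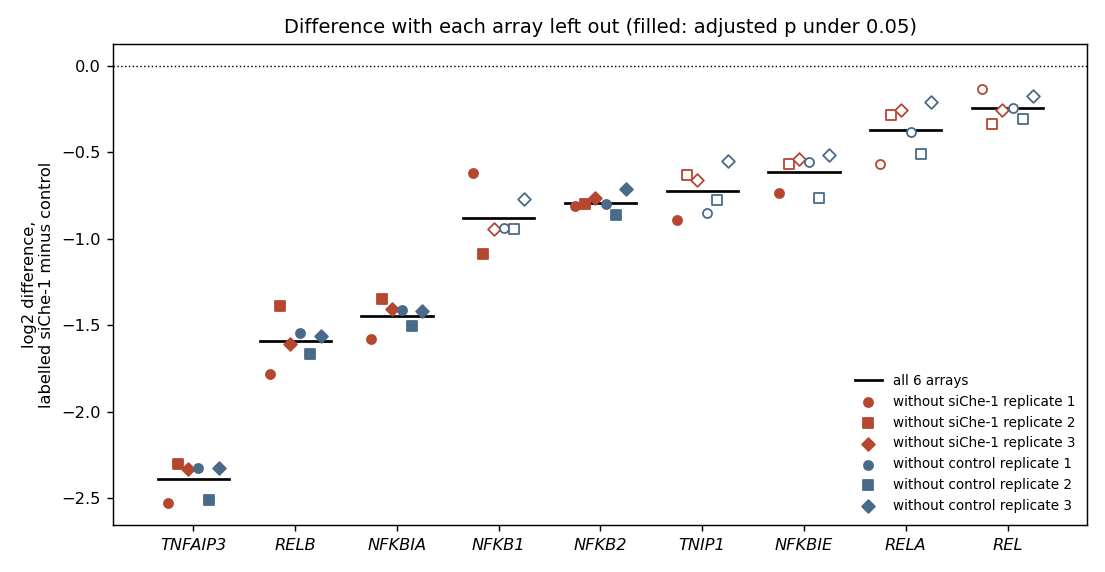
Log2 difference (y axis, labelled siChe-1 minus labelled control) of each gene with 1 array left out at a time, by array, with a black line for all 6 arrays and filled symbols for adjusted p under 0.05. All values are below 0, which was fixed in advance for all genes but RELA and REL, since their groups do not overlap in the full data. The symbols of TNFAIP3, RELB, NFKBIA and NFKB2 are filled throughout.

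Some receptors and adaptors upstream of the subunits were lower. Of 15 measured receptors and adaptors (of 18 listed), 4 fell, none rose and 11 did not pass, with a median difference of -0.14. Over all genes, 2.52% fell and 1.19% rose, with a median of 0.0051. TLR3, the endosomal receptor for double-stranded RNA, read 4.69, 5.53 and 5.69 in the arrays labelled siChe-1, against 7.18, 7.15 and 7.06 in those labelled control (log2 difference -1.83, limma adjusted p = 0.00141). MYD88, the adaptor of the interleukin-1 and most Toll-like receptors, differed by -0.98 (adjusted p = 0.00400) and IRAK2, a kinase recruited by it, by -0.83 (adjusted p = 0.0225). TRAF3, an adaptor that restrains the slower branch, differed by -0.56 (adjusted p = 0.0389). The receptor for TNF itself, TNFRSF1A, differed by -0.088 (adjusted p = 0.811). TLR3 and MYD88 passed whichever array was left out. Without siChe-1 replicate 3, control replicate 1 or control replicate 3 they were the 2 that passed, and the same pair passed when all probe sets were tested. TRAF3 also missed the threshold without siChe-1 replicate 2 or control replicate 2.

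Of 15 measured kinases and ubiquitin ligases (of 16 listed), RNF31 alone fell, none rose and 14 did not pass, with a median of -0.17. A single call in 15 is close to the 2.52% of all genes that fell and is not read as a result about this list. RNF31, the catalytic subunit of the ligase that makes linear ubiquitin chains, read 7.41, 7.40 and 7.21 in the arrays labelled siChe-1, against 7.96, 7.78 and 7.95 in those labelled control (log2 difference -0.56, limma adjusted p = 0.0337). Of the 6 arrays, only siChe-1 replicate 1 could be left out with RNF31 still past the threshold. It also missed the threshold under another quantile normalization, with a gene's probe sets averaged and with all probe sets tested. The subunits of the IkB kinase did not pass, with CHUK at -0.51 (adjusted p = 0.185), IKBKG at -0.17 (adjusted p = 0.623) and IKBKB at 0.045 (adjusted p = 0.913). IKBKG averaged 4.80 in the arrays labelled siChe-1, below the array medians, so the size of its difference is uncertain.

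Of 15 other inhibitors and IkB-like proteins, N4BP1 and NFKBIZ fell, none rose and 13 did not pass, with a median of -0.17, where 2.52% of all genes fell and their median was 0.0051. N4BP1, a negative regulator of NF-kB signalling, differed by -0.78 (limma adjusted p = 0.0310). NFKBIZ, a nuclear IkB-like protein that NF-kB induces, read 5.01, 5.06 and 4.88 in the arrays labelled siChe-1, against 5.35, 5.87 and 5.66 in those labelled control (log2 difference -0.64, adjusted p = 0.0428). The mean of the arrays labelled siChe-1 lies below the medians of those arrays, so the size is uncertain. Neither passed without siChe-1 replicate 3, control replicate 2 or control replicate 3, nor when all probe sets were tested. N4BP1 also missed the threshold without control replicate 1, and NFKBIZ without siChe-1 replicate 2 and under an intensity trend with a robust prior. CYLD, a deubiquitinase that opposes the pathway like A20, was at -0.72 (adjusted p = 0.0523), BCL3 was at 0.077 (adjusted p = 0.880) and NFKBIB, a further IkB gene, was at -0.37 (adjusted p = 0.245).

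Of 26 measured target genes (of 28 listed), 7 fell, none rose and 19 did not pass, with a median of -0.23, and 23 of the 26 differences were below 0. Over all genes, 2.52% fell, 1.19% rose and 49.1% of differences were below 0. CXCL8, a neutrophil chemokine, read 5.04, 5.04 and 4.83 in the arrays labelled siChe-1, against 6.99, 6.54 and 6.35 in those labelled control (log2 difference -1.66, limma adjusted p = 0.000367). IRF1, a transcription factor shared with the interferon response, read 6.46, 6.75 and 6.55 in the arrays labelled siChe-1, against 8.03, 7.90 and 8.33 in those labelled control (log2 difference -1.50, adjusted p = 0.000272). In both genes every array labelled siChe-1 lay more than 1 log2 unit below every array labelled control. CCL20, a chemokine of epithelia, differed by -1.34 (adjusted p = 0.000303), with readings of 3.09 to 3.22 in the arrays labelled siChe-1 and 4.39 to 4.73 in those labelled control, both below the array medians, so its size is uncertain. PLAU, the urokinase plasminogen activator, differed by -1.10 (adjusted p = 0.000629), CXCL1 by -0.89 (adjusted p = 0.0224), CSF1, a macrophage growth factor, by -0.85 (adjusted p = 0.00543) and LIF, a cytokine of the interleukin-6 family, by -0.62 (adjusted p = 0.0426). CXCL8 averaged 4.97 in the arrays labelled siChe-1, below the medians of those arrays (5.03 to 5.05), so its size is also uncertain. CXCL8, IRF1, CCL20, PLAU and CSF1 passed whichever array was left out, whereas CXCL1 missed the threshold without control replicate 1 or 3, and LIF missed it unless the array left out was siChe-1 replicate 1. Both also missed it when all probe sets were tested, LIF under another quantile normalization too, and CCL20 was not tested when the dimmest genes were left out. Several target genes that are strongly induced in other cell types read below the array medians on all 6 arrays, among them TNF (3.66 to 4.12), IL6 (2.51 to 2.79), ICAM1 (3.50 to 4.12) and VCAM1 (2.66 to 3.09). SOD2, a mitochondrial superoxide dismutase, was at -0.22 (adjusted p = 0.440) and IER3, an early response gene, at -0.18 (adjusted p = 0.700). The plot of pathway genes by role sets these lists beside the subunits and feedback inhibitors.

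**Figure D5:**
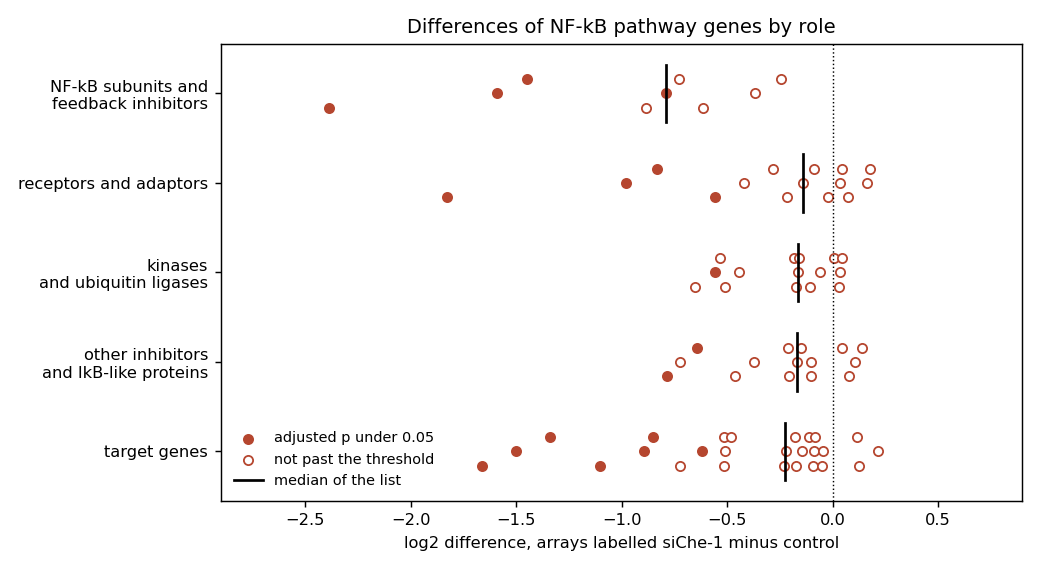
Log2 difference (x axis, labelled siChe-1 minus labelled control) of each measured gene in 5 lists by role, 1 point per gene, filled for adjusted p under 0.05, with a line at each list's median. The medians lie at -0.79 for the subunits and feedback inhibitors and between -0.23 and -0.14 for the other 4 lists, and every filled point is below 0.

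The genes whose pattern over the 6 arrays was most like the average of the 9 were OAS2, FJX1, TUBB4B, WDR5 and SEMA7A, with Pearson r between 0.996 and 0.999 across 6 arrays. The 6 points share the gap between the groups, so r is given as a description. OAS2, a sensor of double-stranded RNA, differed by -2.25 (limma adjusted p = 0.000107), of uncertain size since the arrays labelled siChe-1 averaged 3.60, and SEMA7A, a membrane-anchored semaphorin, by -1.42 (adjusted p = 0.00114). FJX1 differed by -0.68 (adjusted p = 0.0164), while TUBB4B, a tubulin, was at -0.37 (adjusted p = 0.115) and WDR5, a subunit of histone methyltransferase complexes, at -0.33 (adjusted p = 0.146).

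Markers of other cell types were compared between the groups as well. Of the 9 measured leukocyte markers none passed, with CD14 the highest difference (0.38, adjusted p = 0.119), LST1 the median (0.070) and ITGAM the lowest (-0.24). Their summed level was 7.46 to 7.54 in the arrays labelled siChe-1 and 7.33 to 7.43 in those labelled control (log2 of the sum of linear intensities). None of the 8 fibroblast and endothelial markers passed either, from PDGFRB (-0.10) to COL1A1 (0.38, adjusted p = 0.107). Their summed level was 7.89 to 8.10 in the arrays labelled siChe-1 and 7.68 to 7.74 in those labelled control. Of the 9 epithelial markers, KRT19 fell (-0.59, adjusted p = 0.0171), ELF3 rose (0.67, adjusted p = 0.0191) and 7 did not pass, with CDH17 at the median (0.0089). Their summed level was 13.4 to 13.5 in the arrays labelled siChe-1 and 13.8 on each array labelled control. A sum of linear intensities mostly follows the brightest markers of its list. CD14, ITGAM, PDGFRB and CDH17 had group means below the array medians, so the sizes of their differences are uncertain. The part of the marker differences in the NF-kB differences was not tested.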

How the data were processed

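Expression was measured on 6 whole-transcript Affymetrix arrays, 3 per group, each from 6 micrograms of total RNA. The deposited table holds log2 intensities. The authors produced them by RMA with the Affymetrix Expression Console software, according to the submitters' processing notes, with settings and versions not given in the sources used here. Array medians lay between 4.95 and 5.05 over 33297 probe sets. Quantile normalization, usual in RMA, hides a change in total RNA per cell. The platform annotation gave 1 symbol for 19460 probe sets, several for 1754 and no entry for 12083. Where a gene had several probe sets (769 genes), the one with the highest mean was used, leaving 18417.

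All genes were fitted in 1 model without covariates or a filter on low values (limma 3.58.1, lmFit then eBayes, R 4.3.3), as labelled siChe-1 minus labelled control, with Benjamini-Hochberg adjustment and a threshold of 0.05. On simulated data for this comparison, with 200 of 18417 genes changed, 76% of 2-fold and 100% of 4-fold changes were recovered and false calls made up 5.38% of calls. The simulated noise was independent between genes, with no effect shared across an array, so these rates may not hold for the real arrays. Precision is limited by the number of arrays.

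The listed genes, the pathway and marker lists and the tests were chosen with earlier results of these data known, so no list is independent evidence. The genes named were AATF, the listed genes, up to 6 called genes with the largest difference in each pathway list, the lowest, median and highest of each marker list by difference, and the 5 genes most like the average of the set. LIF, TNFRSF1A, CHUK, IKBKB, IKBKG, CYLD, BCL3, NFKBIB, TNF, IL6, ICAM1, VCAM1, SOD2, IER3, EPCAM, KRT8, KRT18, VIL1, PTPRC and TYROBP were named after their values were seen. Alternatives covered normalization, centring, filters, probe set choice, the variance prior, weighting of arrays, a replicate block, a stricter threshold and leaving out each array.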

Additional observations from a re-analysis of the deposited data

How the results depend on the processing

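TNFAIP3, RELB, NFKBIA and NFKB2 kept their side of the threshold in all 15 alternatives. The differences of the 9 genes stayed below 0 under another quantile normalization, after centring, with array weights and with single arrays left out. For genes whose groups did not overlap, weighting or leaving out an array could not change the sign. The filter on dim genes, the probe set choices, the variance prior, the replicate block and the stricter threshold leave these differences as they were. The stricter threshold was applied to the same fit, so genes that had not passed could not come to pass under it. Of 135 values of the 9 genes over all alternatives, 119 stayed on the same side, a count that includes those fixed outcomes. The other 16 values came to pass the threshold. After centring on array medians these were NFKB1 (-0.95), TNIP1 (-0.79) and NFKBIE (-0.68). With the dimmest 40% of genes left out they were NFKB1 (-0.88) and TNIP1 (-0.73), where fewer genes were tested. With array weights they were NFKB1 (-0.71), RELA (-0.54), NFKBIE (-0.74) and TNIP1 (-0.81). The replicate number as a block gave NFKB1 (-0.88), NFKBIE (-0.61) and TNIP1 (-0.73). The replicate numbers do not pair the arrays by the labels, and deviations from the group means correlated by 0.23, 0.064 and -0.045 between same-numbered arrays, so the block is an alternative only. With single arrays left out, NFKB1 ranged from -1.09 to -0.62, TNIP1 from -0.89 to -0.55, NFKBIE from -0.77 to -0.52, RELA from -0.57 to -0.21, REL from -0.34 to -0.14, NFKB2 from -0.86 to -0.71, NFKBIA from -1.58 to -1.35, RELB from -1.78 to -1.39, TNFAIP3 from -2.53 to -2.30 and AATF from 1.05 to 1.22.

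Of the 9 genes, 7 were called after centring, 8 with array weights and 7 with the replicate block, and between 4 and 7 with an array left out. The 14 pathway genes called became 7 when all probe sets were tested, 26 with array weights, 7 at a threshold of 0.01, and 7 to 19 with an array left out. Over all genes, 307 were lower and 101 higher when all probe sets were tested, 1517 and 1348 with array weights, 729 and 416 with the replicate block, and 197 and 64 at 0.01. With an array left out, 199 to 826 were lower and 63 to 739 higher. The cause of these shifts was not tested. Only the stricter threshold lowers the counts by construction. Testing all probe sets also refits the variances, and leaving out an array changes the data as well as the number of arrays. Without siChe-1 replicate 1 the counts over all genes rose, to 826 lower and 739 higher. The table has no measure of signal over background, which limits what low readings, such as those of TNFAIP3, can show.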
